A study of Mus musculus with 2 samples.

Results

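The Rag GTPases and the Ragulator complex form the docking platform of the mTORC1 kinase on the lysosome. Their 9 genes (Rraga, Rragb, Rragc, Rragd and Lamtor1 to Lamtor5) were taken by symbol from a table of 54532 genes, and all 9 were found. RNA was sequenced from interscapular brown fat, a depot that burns fuel to produce heat, of C57BL/6J mice aged 1 month and labelled male. The rheb BAD KO library came from 3 pooled mice with a Ucp1-driven Cre and both Rheb alleles floxed (Ucp1-cre; rheb FL/FL), and the control library from 3 pooled littermates with the floxed alleles and no Cre named (rheb FL/FL). The Ucp1 promoter drives Cre in brown adipocytes, so other cells of the tissue keep Rheb. Each group is 1 library, so no difference has a replicate check and no p-value was computed. All intervals are 95% exact intervals of the read counts and cover counting error only.

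A Rag dimer pairs RagA or RagB with RagC or RagD. When amino acids are plentiful, the dimer binds Raptor and brings mTORC1 to the lysosome, where the GTPase Rheb activates the kinase. Ragulator, built from the 5 Lamtor proteins, anchors the Rag dimer to the lysosomal membrane. The RagC and RagD arm also recruits the transcription factors TFEB and TFE3, which bind promoters of lysosomal genes.

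The libraries held 23699316 counts in rheb BAD KO tissue and 21855229 in control tissue. Rheb itself was at 25.1 CPM (read counts per library size, corrected with TMM factors) in the rheb BAD KO library and 45.3 CPM in the control library, a ratio of 0.553 (0.499 to 0.613). All 10 brown adipocyte markers were detected in both libraries, with Ucp1 at 2887 CPM in the rheb BAD KO library and 2211 CPM in the control library. Of these 10, 2 were called higher in the rheb BAD KO library (Dio2, ratio 4.06, and Ppargc1a, 2.38), 2 lower (Elovl3, 0.496, and Adipoq, 0.567) and 6 neither, by a 1.5-fold rule. By the same rule, 21.9% of the 12973 genes whose mean reached 1 CPM were called lower and 21.9% higher. The control library went against its sex label. Xist, the RNA of the inactive X chromosome, had 4 counts in the rheb BAD KO library and 7452 in the control library, and the Y-linked Eif2s3y had 2653 against 0. Genotype and sex therefore cannot be told apart in what follows, for autosomal genes as well as for sex-linked genes. The 7 neutrophil and erythroid markers whose mean reached 1 CPM were all called higher in the rheb BAD KO library. They were the neutrophil genes S100a8 and S100a9 and the erythroid genes Hba-a1, Hba-a2, Hbb-bs, Hbb-bt and Alas2. The neutrophil markers Ngp (8 counts in the rheb BAD KO library, 1 in the control library) and Camp (2 and 3) did not reach it. The 19 skeletal muscle markers summed to 442 CPM in the rheb BAD KO library and 3991 CPM in the control library.

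All 8 genes of the platform whose mean reached 1 CPM had a lower level in the rheb BAD KO library than in the control library. Rragb, whose mean did not, also had a lower level there, but within counting error. A level below control was found for 50.1% of the 12973 genes whose mean reached 1 CPM. A gene was called lower or higher where its log2 ratio, on CPM plus 0.5, reached 1.5-fold and its counting interval excluded 1. Of the 8 members that passed the 1 CPM filter, 5 were called lower (Rragd, Rraga, Lamtor1, Lamtor2 and Lamtor5), none was called higher and 3 fell short of either call and are termed in between (Lamtor4, Lamtor3 and Rragc). Across all genes kept, 21.9% were called lower and 21.9% higher. Among the 4070 genes with a mean level between those of Rraga and Lamtor1, 18.2% were called lower and 21.1% higher. At a threshold of 2-fold, 2 members were lower (Rraga and Rragd) and none higher, beside 9.97% and 9.26% of all genes kept. At 3-fold, Rragd was lower and no member higher, beside 3.81% and 2.33%. The median log2 ratio was -0.73 over the 8 members and -0.0027 over all genes kept. In bulk tissue, fewer cells of a type and less RNA per cell cannot be told apart.

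**Figure D1:**
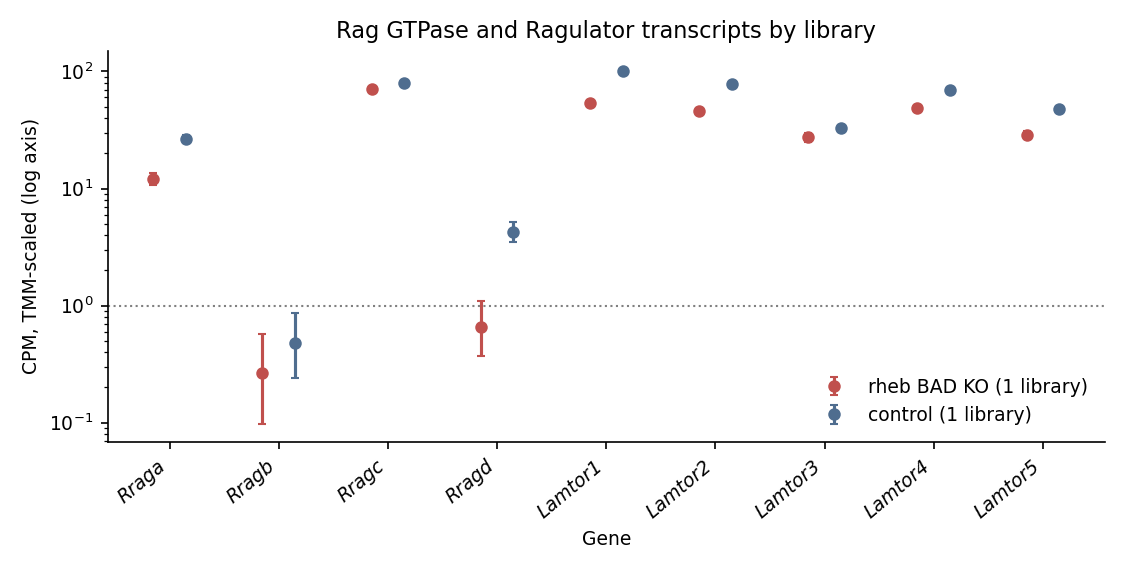
Level of each gene in CPM (TMM-scaled, log axis) in the rheb BAD KO library (red) and the control library (blue), 1 library each, with 95% Poisson counting intervals and a dotted line at 1 CPM. The red point lies under the blue point for all 9 genes, and the intervals of the libraries overlap only for Rragb.

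Among the RagA and RagB genes, only Rraga had an appreciable level. Rraga, which encodes RagA (mm10 chromosome 4, 86575668 to 86577285, plus strand), had 274 counts in the rheb BAD KO library and 604 in the control library. This was 12.1 CPM against 26.4 CPM, a ratio of 0.458 (0.396 to 0.529), or 2.18-fold lower, and the counting intervals of the libraries did not overlap. Its log2 ratio of -1.09 was lower than that of all but 8.36% of the genes kept. Rragb, the gene of the close paralog RagB (chromosome X, 153139981 to 153171943, plus strand), had 6 counts in the rheb BAD KO library and 11 in the control library. With 0.265 and 0.481 CPM it did not pass the filter, and its ratio of 0.551 had an interval of 0.167 to 1.63, so a difference was not detectable at this depth. Rragb made up 2.14% of the summed Rraga and Rragb counts in the rheb BAD KO library (0.790 to 4.61) and 1.79% in the control library (0.896 to 3.18). RagA transcripts therefore made up most of this arm in both libraries, and its makeup did not differ beyond counting error. Rragb is the only X-linked member. The 395 X-linked genes kept had a median log2 ratio of -0.12, against -0.0011 for 12530 autosomal genes.

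The RagC and RagD genes differed from each other. Rragc (chromosome 4, 123917446 to 123936997, plus strand) had 1601 counts in the rheb BAD KO library and 1825 in the control library. Its level was 70.7 CPM against 79.8 CPM, a ratio of 0.886 (0.828 to 0.948), the value closest to 1 among the 9 genes. Exons of Rragc share 264 bases with 4930535I16Rik on the other strand, which had 0 counts in both libraries. The kit does not mark strand, so reads of those bases cannot be assigned to either gene. Rragd (chromosome 4, 32983037 to 33022180, plus strand), whose transcription MiT/TFE factors are known to activate, had 15 counts in the rheb BAD KO library and 98 in the control library. This low-level gene was at 0.662 CPM against 4.28 CPM, with a ratio of 0.155 (0.0834 to 0.268), or 6.47-fold lower. The size of its log2 ratio depended on the pseudocount, with -2.04 at 0.5 and -1.24 at 2. Rragd made up 0.928% of the summed Rragc and Rragd counts in the rheb BAD KO library (0.520 to 1.53) and 5.10% in the control library (4.16 to 6.18). The Rragd ratio was thus 0.175 of the Rragc ratio (0.0937 to 0.304, exact conditional odds ratio), a comparison that needs no library scaling. RagC transcripts made up nearly all of this arm in both libraries. The rheb BAD KO library, in which Rragd was low, also had the low level of skeletal muscle markers: all 19 were called lower, with a median log2 ratio of -3.58 and none at 0 counts in either library. The part of muscle RNA in the Rragd difference was not tested.

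**Figure D2:**
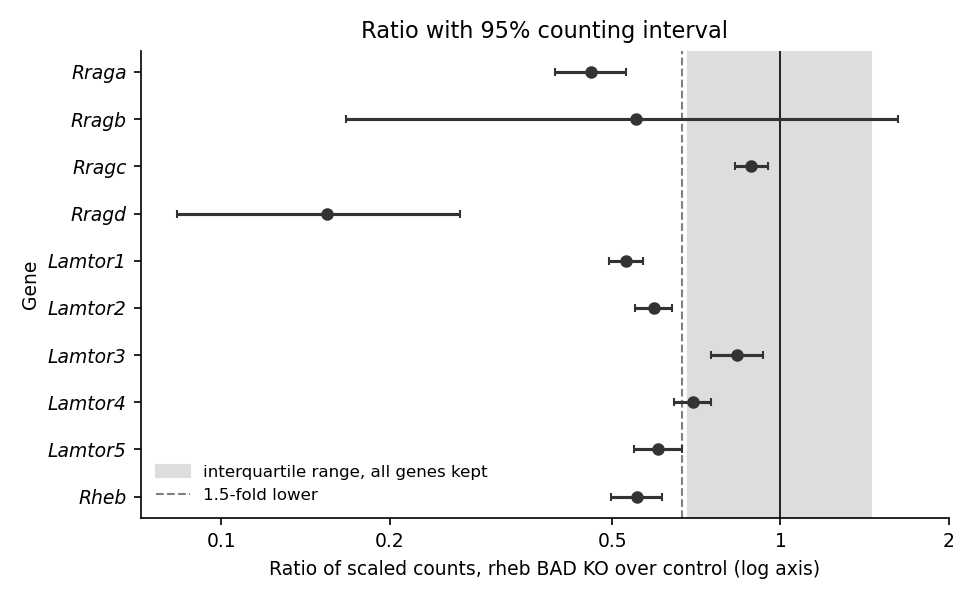
Ratio of scaled counts, rheb BAD KO over control (log axis), for the 9 genes and Rheb, with 95% exact binomial counting intervals. The grey band runs from 0.684 to 1.45, the quartiles of all genes kept, and the dashed line marks a 1.5-fold lower level. Rragd lies farthest from 1 at 0.155, Rragc nearest at 0.886, and the interval of Rragb spans 1.

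The Ragulator genes had a lower level as a set, by unequal amounts. Summed over the 5 Lamtor genes, there were 4634 counts in the rheb BAD KO library and 7537 in the control library, a ratio of 0.621 (0.599 to 0.644). Lamtor1 (chromosome 7, 101905904 to 101926675, plus strand) encodes the lipid-anchored subunit that wraps around the others and fixes the complex to the lysosome. It had 1219 counts in the rheb BAD KO library and 2326 in the control library, or 53.8 against 101.7 CPM. Its ratio was 0.529 (0.493 to 0.568), the lowest of the 5. This ratio lay within the interval of Rheb, as did those of Lamtor2 (0.593) and Lamtor5 (0.604). Exons of Lamtor1 share 600 bases with Lrrc51 on the other strand, which had 14 counts in the rheb BAD KO library and 62 in the control library. The kit does not mark strand, so reads of these shared bases cannot be told apart.

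Lamtor2 and Lamtor3 encode the roadblock-fold dimer that was first known as a scaffold of MAP kinases. Lamtor2 (chromosome 3, 88549819 to 88553074, minus strand) had 1041 counts in the rheb BAD KO library and 1773 in the control library. Its 45.97 CPM against 77.5 CPM gave a ratio of 0.593 (0.549 to 0.641). Lamtor3 (chromosome 3, 137918506 to 137928900, plus strand) had 618 counts in the rheb BAD KO library and 746 in the control library. Its 27.3 CPM against 32.6 CPM gave a ratio of 0.837 (0.751 to 0.932), which was not called. The partner genes thus had ratios whose counting intervals did not overlap.

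Lamtor4 and Lamtor5 encode the other roadblock dimer of the complex. Lamtor4 (chromosome 5, 138255482 to 138259398, plus strand) had 1102 counts in the rheb BAD KO library and 1598 in the control library. With 48.7 CPM against 69.9 CPM its ratio was 0.696 (0.644 to 0.753), just short of the 1.5-fold threshold, and scaling by total counts (ratio 0.636) put it past the threshold. Lamtor5 (chromosome 3, 107278858 to 107284082, plus strand) had 654 counts in the rheb BAD KO library and 1094 in the control library. With 28.9 CPM against 47.8 CPM its ratio was 0.604 (0.547 to 0.666), past the threshold.

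Comparisons among the Lamtor genes, which need no scaling, showed where subunits departed from each other. Relative to the sum of the other Lamtor genes, Lamtor1 had a ratio of ratios of 0.800 (0.736 to 0.868) and Lamtor3 of 1.40 (1.25 to 1.57). Lamtor4 stood at 1.16 (1.06 to 1.27). The values of Lamtor2, 0.942 (0.862 to 1.03), and Lamtor5, 0.968 (0.870 to 1.08), did not depart from the rest beyond counting error. Against the summed Lamtor genes, Rraga was at 0.738 (0.634 to 0.857) and Rragc at 1.43 (1.32 to 1.54). Relative to the other Lamtor genes, Lamtor3 and Lamtor4 were thus higher in the rheb BAD KO library than in the control library and Lamtor1 lower. Of the Rag genes, set against the summed Lamtor genes, Rragc was higher and Rraga lower. These comparisons are not corrected for gene length. Correction for the median of genes of like length gave ratios of 0.554 for Lamtor1, 0.649 for Lamtor2 and 0.819 for Lamtor3. For Lamtor4 the corrected ratio was 0.762 and for Lamtor5 0.584. Whether Lamtor2 and Lamtor5 depart from the rest after this correction was not tested.

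**Figure D3:**
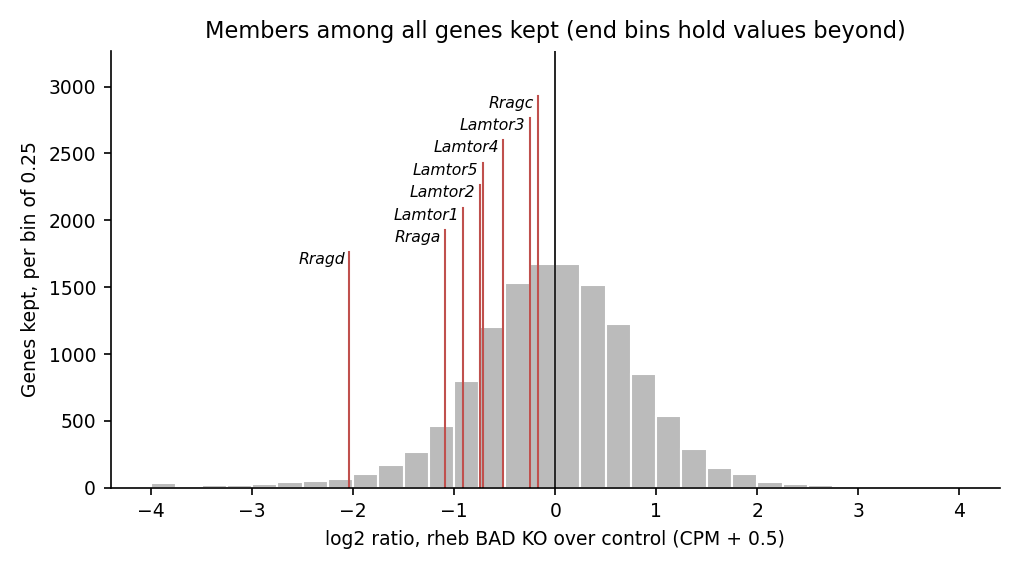
Distribution of the log2 ratio, rheb BAD KO over control, over the 12973 genes kept (grey bars, bins of 0.25, with values beyond the axis in the end bins). Red lines mark the 8 members that passed the filter, all on the negative side, from Rragd at -2.04 to Rragc at -0.17.

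Levels of different genes were compared only per length, as CPM per kilobase of merged exons. In the rheb BAD KO library the order was Lamtor2 (37.7), Lamtor4 (37.4), Lamtor5 (32.7), Rragc (21.2), Lamtor1 (16.7), Rraga (7.48), Lamtor3 (6.57), Rragd (0.128) and Rragb (0.117). The neighbours whose counting intervals overlapped there were Lamtor2 and Lamtor4, Lamtor4 and Lamtor5 (by a small margin), Rraga and Lamtor3, and Rragd and Rragb. In the control library the order was Lamtor2 (63.6), Lamtor5 (54.1), Lamtor4 (53.7), Lamtor1 (31.6), Rragc (23.9), Rraga (16.3), Lamtor3 (7.86), Rragd (0.828) and Rragb (0.213). There the intervals of Lamtor5 and Lamtor4 overlapped and those of the other neighbours did not. Lamtor1 was above Rragc per length in the control library and below it in the rheb BAD KO library. Merged exons include retained introns and alternative ends, and this order depended on that length. With the longest protein-coding GENCODE transcript in its place, an alternative chosen after the data were seen, Lamtor1 was second to Lamtor2 in the control library (90.9 against 116.0 CPM per kilobase) and stood above Rragc in the rheb BAD KO library (48.1 against 27.3). Rragd and Rragb were the lowest under both lengths. The 5 Lamtor genes, Rragc and Rraga had a higher level per length than at least 68.0% of the genes kept in the rheb BAD KO library and 72.6% in the control library.

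**Figure D4:**
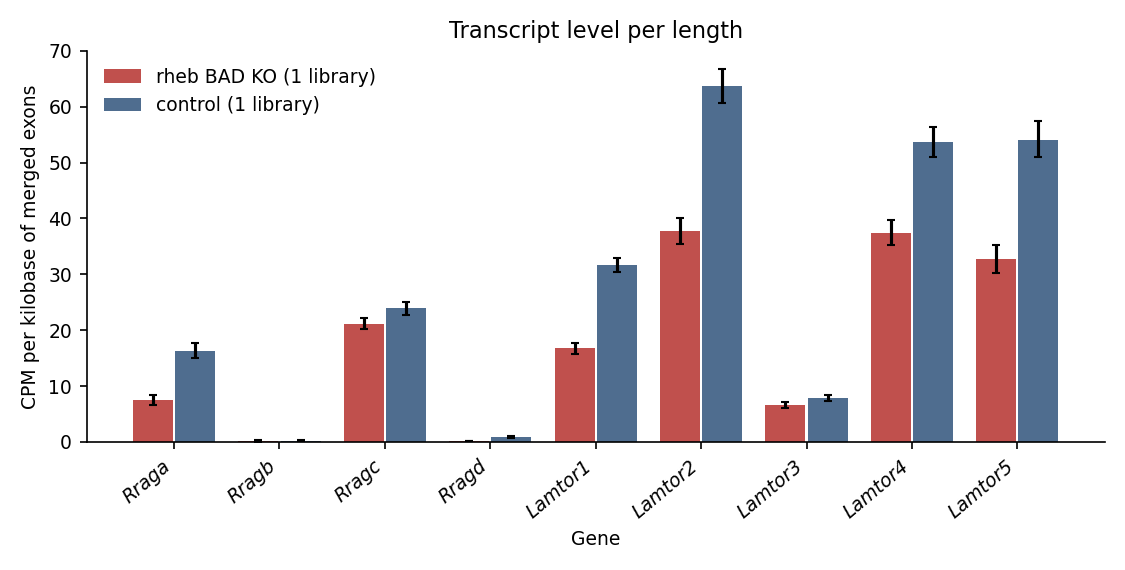
Level per length (CPM per kilobase of merged exons) in the rheb BAD KO library (red) and the control library (blue), 1 library each, with 95% Poisson counting intervals. Lamtor2, Lamtor4 and Lamtor5 have the highest bars in both libraries, and the bars of Rragb and Rragd are near 0.

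Near-identical copies were looked for because reads of a parent gene and its pseudogenes can be confused. Transcripts of other loci with at least 90% identity over 200 bases or more were found for Lamtor1 (Gm5510 and Gm13077), Lamtor3 (Gm5900), Lamtor4 (Gm15129) and Lamtor5 (Gm15190 and Gm13537), all processed pseudogenes. All 6 had 0 counts in both libraries. How the authors treated reads that map to several places is not given in the sources used here, so a loss of such reads from the Lamtor counts was not tested. No such copy at another locus was found for the 4 Rag genes or Lamtor2, Rraga and Rragb included.

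The promoters of the members were searched for CACGTG, an E-box, and for TCACGTG, core letters of the motif that MiT/TFE factors bind, on both strands. Every TCACGTG match on either strand contains a CACGTG. RefSeq promoters (GRCm38.p6, 250 bases before to 50 after the start) were matched for 8 of the 9 genes, Lamtor3 being the exception. CACGTG was present in 4 of the 8, and each of these also held TCACGTG, whereas 7.15% of all 32851 promoters held CACGTG and 3.77% held TCACGTG. The letters CACGTG began 68 bases before the start in Lamtor1, 112 in Rragc, 120 and 104 in Lamtor4, and 127, 36 and 3 in Rragb. The windows of Rraga, Rragd, Lamtor2 and Lamtor5 did not hold these letters. Of the genes with a match, Lamtor1 was called lower, Lamtor4 and Rragc were in between, and Rragb did not pass the filter. The 4 searched genes without a match were all called lower. The 4 promoters are printed 5′ to 3′ because they show where the shared letters lie, with capitals marking each match. They are chr7:101905587-101905886 for Lamtor1, chr5:138255232-138255531 for Lamtor4, chrX:153139708-153140007 for Rragb and chr4:123917183-123917482 for Rragc, all on the plus strand.
Lamtor1: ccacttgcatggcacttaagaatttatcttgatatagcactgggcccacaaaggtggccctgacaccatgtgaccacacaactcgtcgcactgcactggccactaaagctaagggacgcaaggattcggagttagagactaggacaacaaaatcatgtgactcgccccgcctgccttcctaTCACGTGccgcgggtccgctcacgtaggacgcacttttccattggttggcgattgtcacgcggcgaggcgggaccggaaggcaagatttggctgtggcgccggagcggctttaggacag
Lamtor4: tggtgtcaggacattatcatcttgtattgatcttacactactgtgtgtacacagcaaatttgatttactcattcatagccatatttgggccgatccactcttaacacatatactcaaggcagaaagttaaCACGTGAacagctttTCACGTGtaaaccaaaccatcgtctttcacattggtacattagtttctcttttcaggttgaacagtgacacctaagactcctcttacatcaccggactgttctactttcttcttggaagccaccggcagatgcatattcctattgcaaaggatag
Rragb: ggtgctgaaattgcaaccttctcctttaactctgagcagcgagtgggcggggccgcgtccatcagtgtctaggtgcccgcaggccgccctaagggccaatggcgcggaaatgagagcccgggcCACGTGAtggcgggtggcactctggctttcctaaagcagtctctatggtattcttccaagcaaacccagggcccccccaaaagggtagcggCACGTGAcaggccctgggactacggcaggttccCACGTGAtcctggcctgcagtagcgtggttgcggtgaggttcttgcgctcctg
Rragc: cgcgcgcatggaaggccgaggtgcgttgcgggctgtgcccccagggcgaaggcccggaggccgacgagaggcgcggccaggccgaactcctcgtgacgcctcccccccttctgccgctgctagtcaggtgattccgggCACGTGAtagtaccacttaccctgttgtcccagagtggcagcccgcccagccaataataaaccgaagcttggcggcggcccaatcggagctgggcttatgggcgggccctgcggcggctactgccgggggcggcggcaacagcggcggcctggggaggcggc

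Genes that act on the Rag dimer and other partners of the platform were described by the same 1.5-fold rule. That rule called 21.9% of all genes kept lower and 21.9% higher, the shares to set beside each list below. In the list of amino acid sensors and GATOR, whose products report amino acids to the Rag GTPases, 5 of 18 genes were called higher, 2 lower and 11 lay in between. The median log2 ratio was -0.019, and its sign turned under other settings. Slc38a9, the lysosomal arginine sensor that binds Ragulator, was at 32.5 CPM in the rheb BAD KO library and 14.4 CPM in the control library, a ratio of 2.26 (1.98 to 2.58). Itfg2, a subunit of the KICSTOR scaffold of GATOR1, had a ratio of 2.19 (1.86 to 2.59). Sesn3, a sestrin, was at 2.25 CPM against 7.48 CPM, a ratio of 0.301 (0.216 to 0.414), and Castor2, of the arginine sensor family, had a ratio of 0.340 (0.270 to 0.425). The direct Ragulator partner Slc38a9 was thus on the higher side, and both genes named as lower had low levels in the rheb BAD KO library.

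Folliculin and its partners act on RagC and RagD, and the MiT/TFE factors are recruited by them. Of 6 genes kept in this list, 3 were called higher, none lower and 3 in between, beside 21.9% of all genes kept in each direction. Their median log2 ratio was 0.56. Flcn, which encodes folliculin, was at 461.0 CPM in the rheb BAD KO library and 156.6 CPM in the control library, a ratio of 2.94 (2.83 to 3.06). Tfeb was at 39.5 CPM against 18.1 CPM, a ratio of 2.18 (1.94 to 2.46), and the Flcn partner Fnip2 had a ratio of 1.69 (1.42 to 2.01). Fnip1 had a ratio of 1.32 (1.19 to 1.46) and was not called. Tfec, with 7 counts in the rheb BAD KO library and 0 in the control library, did not pass the filter.

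Of the 10 genes of mTORC1, Rheb and the TSC complex, 3 were called lower, 2 higher and 5 in between (median log2 ratio -0.19). These counts stand beside 21.9% of all genes kept called lower and 21.9% higher. Besides Rheb, Deptor, an mTOR inhibitor, had a ratio of 0.310 (0.290 to 0.332), and Tbc1d7, a subunit of the TSC complex, of 0.469 (0.373 to 0.586). Tsc1, which belongs to the same complex, had a ratio of 1.76 (1.55 to 2.01). The proton pump of the lysosome, the V-ATPase, binds Ragulator. Of its 16 genes, 7 were called lower, none higher and 9 in between, beside the same shares of all genes kept. Their median log2 ratio was -0.53. Atp6v0c, of the membrane ring, had the lowest ratio at 0.458 (0.387 to 0.539), followed by Atp6v1a (0.530, 0.481 to 0.584), Atp6v0e (0.531, 0.497 to 0.568) and Atp6v1d (0.534, 0.487 to 0.584). The V-ATPase shares with the platform a median below 0 and no gene called higher, but 3 of its 16 genes had a log2 ratio above 0, against none of the 8 members. With correction for the median of genes of like length, 1 V-ATPase gene was called higher and 8 lower. The BORC and MAP kinase lists described next also had medians below 0 (-0.060 and -0.32) and no gene called higher.

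Other partners gave mixed counts. BORC, the complex that binds Ragulator and positions lysosomes, had 7 genes kept, all in between, with log2 ratios from -0.43 (Borcs7) to 0.57 (Bloc1s2). With total counts without the 20 highest genes, or with a pseudocount of 0.05, 1 BORC gene was called higher. Among kinases of the MAP kinase cascade that the Lamtor2 and Lamtor3 dimer scaffolds, Map2k1 was called lower (ratio 0.585, 0.527 to 0.650), and Map2k2 (1.07) and Mapk3 (1.16) lay in between. Of 13 lysosomal membrane and hydrolase genes, 4 were called lower, 2 higher and 7 in between (median log2 ratio -0.29). Across all genes kept, the shares were 21.9% lower and 21.9% higher. The protease gene Ctsb was at 298.5 CPM in the rheb BAD KO library and 1104 CPM in the control library, a ratio of 0.270 (0.263 to 0.278). Cd63, a tetraspanin of late endosomes and lysosomes, was at 69.1 CPM against 36.1 CPM, a ratio of 1.91 (1.76 to 2.08). Macrophages are rich in lysosomes, and 6 of their 10 markers were called higher and none lower (193.5 CPM summed in the rheb BAD KO library and 105.0 CPM in the control library). The part of macrophage RNA in the lysosomal and Ragulator levels was not tested.

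**Figure D5:**
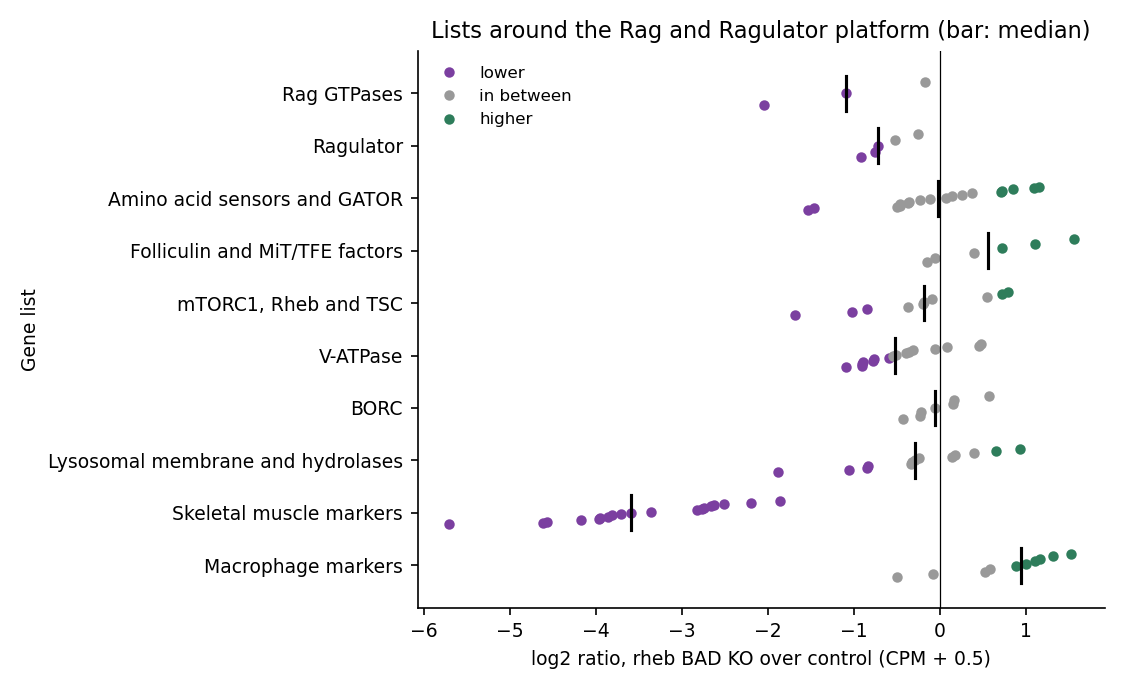
log2 ratio, rheb BAD KO over control, of each gene kept (points) in the lists around the platform and in the markers of muscle and macrophages, with a black bar at each median. Points are coloured by the 1.5-fold rule: the Rag and Ragulator points lie below 0, folliculin and MiT/TFE factors reach 1.55 (Flcn), and skeletal muscle markers run from -5.71 to -1.86.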

How the data were processed

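The deposited table holds raw counts per Ensembl gene, with no normalization by the authors; per the submitters' processing notes, Trimmomatic, HISAT2 and featureCounts were used with mm10. Per the labels, Trizol RNA went into TruSeq RNA v2 libraries, a kit that does not mark strand. The deposited length column is not a measurement of expression; it equals the merged exons of each row. The sources used here do not give versions, annotation or the treatment of multi-mapping reads.

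Counts were scaled to CPM with TMM factors (edgeR 4.0.16, R 4.3.3). Genes were kept where their mean reached 1 CPM. Ratios are of scaled counts, with 95% exact binomial (Clopper-Pearson) intervals; log2 ratios use CPM plus 0.5. PCR copies are not independent molecules, so intervals cover counting error only. The interval and call rule were run on simulated Poisson counts. Those counts hold no spread between mice, so the run cannot show how far the calls would hold in other mice. Copies were searched with BLAST 2.17.0 in GENCODE M21 transcripts. Python 3.11.15 and scipy 1.17.1 were used.

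Named genes were the members, Rheb, Ucp1, sex-linked genes, overlapping genes and copies of members, and up to 4 genes of the largest absolute ratio per list; not every gene so chosen is reported here. Members and lists were chosen with earlier results of these data known. Gatsl2 and Gatsl3, older symbols in the sensor list, were not matched in the table, which lists Castor1 and Castor2.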

Additional observations from a re-analysis of the deposited data

How the results depend on the processing

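No paired analysis was possible because there is 1 pooled library a group, and for the same reason no replicate could be left out. The count of members called lower was 5, and it was 4 to 6 under every scaling, filter, pseudocount, gene-type and length alternative; at 2-fold it was 2 (Rraga and Rragd, beside 9.97% of all genes) and at 3-fold 1 (Rragd, beside 3.81%). None was called higher in any setting. Scaling by total counts put the median of all genes at -0.13 (log2) and gave a members' median of -0.86 and ratios of 0.809 for Rragc, 0.483 for Lamtor1, 0.541 for Lamtor2 and 0.636 for Lamtor4; over all genes 2258 were then called higher and 3527 lower, against 2839 each with TMM. Correction for the median of genes of like length gave 0.649 for Lamtor2 and 0.762 for Lamtor4. A pseudocount of 2 gave Rragd a log2 ratio of -1.24. Per length, Rragd made up 3.35% of Rragc and Rragd in the control library. Leaving out each member moved the members' median between -0.75 and -0.72.

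Medians near 0 changed sign: all genes to 0.050 (total counts without the 20 highest genes) and 0.0029 (protein-coding genes), the sensor and GATOR list to 0.034 (without the 20 highest) and 0.20 (filter of 10 CPM), and BORC to 0.047 (no filter) and 0.097 (length correction). At 10 CPM 1579 genes were called higher and 1514 lower; at 2-fold 1201 and 1294, at 3-fold 302 and 494. At 2-fold the V-ATPase had 1 gene called lower and at 3-fold 0. The causes were not tested. Rragb and Rragd are limited by depth.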
